A study of Mus musculus with 3 samples.

Results

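The annexins are a family of calcium-dependent, phospholipid-binding proteins, and 10 of their genes were followed here: Anxa1, Anxa2, Anxa3, Anxa4, Anxa5, Anxa6, Anxa7, Anxa8, Anxa10 and Anxa11. They were chosen by symbol as a gene family, and all 10 were found among the 46675 genes counted in each of 3 single-cell RNA libraries of mouse hindstomach, the glandular stomach, at embryonic day 18.5. Every library carried Shh-Cre, a recombinase driven from the Sonic hedgehog gene, which is active in the developing gut epithelium. The control library had the genotype Shh-Cre, the YAP5SA library Shh-Cre;YAP5SA and the Yap knockout library Shh-Cre;YaploxP/loxP. YAP5SA is a form of the Hippo pathway coactivator YAP whose inhibitory phosphorylation sites are mutated. Each genotype is 1 library, and the sources used here do not give the number of embryos behind it. No test between genotypes was therefore possible, and the differences below are without replicates.

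An annexin binds acidic phospholipids through a conserved core of repeats when calcium rises, and a variable amino-terminal tail sets its partners, among them S100 proteins. The family is known for membrane repair, vesicle traffic, membrane-cytoskeleton links and, outside the cell, for control of inflammation and clotting. In the stomach, ANXA10 is known as a marker of gastric glandular epithelium, while ANXA1, ANXA2 and ANXA8 are known in squamous and regenerating epithelia.

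Values are unique molecular identifiers (UMIs), each standing for 1 captured messenger RNA 3′ end, so gene length does not enter. For each library they were added up within a cell class and scaled to counts per 1000000 UMIs of that sum (CPM), with an exact Poisson 95% interval in brackets that covers counting error only. Cells were assigned to classes by marker genes. A cell was epithelial-gated when at least 3 of 16 epithelial markers, such as Epcam, Cdh1 and Krt8, had a UMI and together made up at least 25 of every 10000 UMIs. Such a class is a range of a score and not a cell type, and 10 control, 28 YAP5SA and 75 Yap knockout cells lay within 25% above its limit.

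The kept cells numbered 6959 in the control, 8518 with YAP5SA and 4890 in the Yap knockout, with median depths of 4900, 5224.5 and 4979.5 UMIs. Cell names are running labels, and 1062 to 1975 of them were shared by each pair of libraries, 0 of them with equal UMI totals. Epithelial-gated cells numbered 642, 1688 and 939, with median depths of 3326.5, 6124.5 and 3596 UMIs, and all 16 epithelial markers were detected in each library. In epithelial-gated cells Yap1 measured 46.0 (control), 56.4 (YAP5SA) and 22.2 CPM (Yap knockout). The sources used here do not say whether its counted 3′ end lies in the floxed part or also comes from the transgene.

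Promoter windows are shown for 5 members whose epithelial levels differed at least 2-fold between libraries, as described below. They are Anxa1, Anxa2, Anxa5 and Anxa8, which were higher in YAP5SA, and Anxa10, which was lower. Each window is the RefSeq sequence of build GRCm38.p6, from 250 bases before to 50 bases after the transcription start, printed 5′ to 3′ on the gene's strand. Capitals mark GGAATG or its reverse complement CATTCC, the core of the motif bound by TEAD factors, the DNA-binding partners of YAP. The windows lie at chr19:20390622-20390921 (minus strand) for Anxa1, chr9:69453433-69453732 (plus) for Anxa2, chr3:36475838-36476137 (minus) for Anxa5, chr14:34085729-34086028 (plus) for Anxa8 and chr8:62123144-62123443 (minus) for Anxa10.
Anxa1: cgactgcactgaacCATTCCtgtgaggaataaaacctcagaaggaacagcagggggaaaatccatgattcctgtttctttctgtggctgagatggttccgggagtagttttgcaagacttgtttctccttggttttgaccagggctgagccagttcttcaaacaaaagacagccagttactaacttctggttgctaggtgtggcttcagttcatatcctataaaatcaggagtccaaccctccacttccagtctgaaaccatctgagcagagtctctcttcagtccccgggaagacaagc
Anxa2: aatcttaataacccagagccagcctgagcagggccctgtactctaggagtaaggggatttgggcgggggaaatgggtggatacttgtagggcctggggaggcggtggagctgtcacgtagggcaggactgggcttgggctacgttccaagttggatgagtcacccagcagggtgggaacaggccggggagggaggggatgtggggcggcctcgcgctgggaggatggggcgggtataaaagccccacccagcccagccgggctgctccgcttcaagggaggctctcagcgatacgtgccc
Anxa5: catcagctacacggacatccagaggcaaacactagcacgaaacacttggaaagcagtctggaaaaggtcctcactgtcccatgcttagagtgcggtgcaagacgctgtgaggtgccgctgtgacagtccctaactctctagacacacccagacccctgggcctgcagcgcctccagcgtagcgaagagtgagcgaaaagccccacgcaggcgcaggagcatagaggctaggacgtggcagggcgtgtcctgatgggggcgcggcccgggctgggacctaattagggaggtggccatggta
Anxa8: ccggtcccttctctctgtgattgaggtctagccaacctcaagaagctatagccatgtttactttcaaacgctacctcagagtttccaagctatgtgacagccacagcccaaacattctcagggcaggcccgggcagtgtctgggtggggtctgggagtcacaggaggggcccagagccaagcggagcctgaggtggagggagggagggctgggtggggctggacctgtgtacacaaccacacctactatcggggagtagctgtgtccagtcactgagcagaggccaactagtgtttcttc
Anxa10: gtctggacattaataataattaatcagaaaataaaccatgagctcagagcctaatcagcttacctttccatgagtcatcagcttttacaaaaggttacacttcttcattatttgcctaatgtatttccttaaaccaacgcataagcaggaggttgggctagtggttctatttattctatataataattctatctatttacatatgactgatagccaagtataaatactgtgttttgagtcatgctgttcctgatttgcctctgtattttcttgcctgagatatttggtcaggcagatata

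Of the 10 members, 8 had a window in the table, and Anxa3 and Anxa6 did not. The 6-letter core was found in 1 of the 8, Anxa1, once, starting at base 15 of the window. Among all 32851 windows of this length 14.7% held it on either strand, or 16.6% of the 27025 genes. A match of letters is a description of the sequence and not of binding.

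In the YAP5SA library, 5 of 10 annexins (Anxa1, Anxa2, Anxa3, Anxa5 and Anxa8) stood at least 2-fold above the control in epithelial-gated cells, 1 (Anxa10) stood at least 2-fold below, and 4 lay within 2-fold. Different clusters of a joint Leiden clustering held most of these cells in YAP5SA and in the control. Cluster 12 held 484 of the 642 control and 540 of the 939 knockout cells but 44 from YAP5SA, while cluster 17 held 950 of the 1688 YAP5SA cells and 1 from the control. By the 2-fold rule, which asks for at least 20 CPM in either library, 12.9% of the 7277 genes read were higher and 8.23% were lower. Among the members, Anxa8 reached 20 CPM in YAP5SA only. The median log2 ratio was 0.96 over the 10 members and 0.15 over all genes read. Summed over the family, annexins took 1515 CPM (1476 to 1555) of control epithelial UMIs, 3562 (3533 to 3591) of YAP5SA and 1342 (1316 to 1369) of Yap knockout. Anxa2 made up 31.4% of the annexin UMIs in the control, 49.8% with YAP5SA and 24.2% in the knockout, whereas Anxa10 made up 29.9%, 1.34% and 43.2%.

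**Figure D1:**
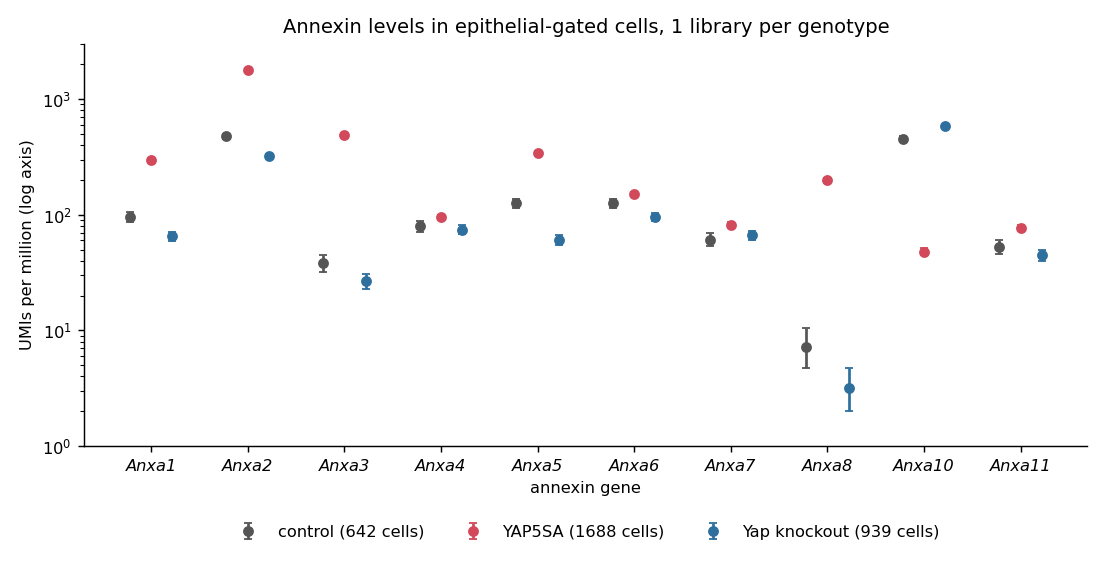
Level of each annexin in epithelial-gated cells (CPM, log axis) for the control, YAP5SA and Yap knockout libraries; points are class sums of 1 library each and bars are exact Poisson 95% intervals. For Anxa8 the YAP5SA point is at 200 CPM and the control at 7.22, and for Anxa10 they are at 47.8 and 453.

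Anxa8, an annexin best known from squamous epithelia, showed the widest ratio of the family. It was close to absent from control epithelial-gated cells at 7.22 CPM (4.76 to 10.51), reached 200 (193 to 207) in YAP5SA and stood at 3.15 (1.997 to 4.73) in the Yap knockout. YAP5SA was thus 27.7-fold (19.0 to 42.1) above the control and its interval lay above both others. The knockout and control levels were both under 20 CPM, so their ratio was not read as a difference. The share of epithelial-gated cells with an Anxa8 UMI was 3.27% in the control, 52.0% with YAP5SA and 1.70% in the knockout. With each cell thinned to 1000 UMIs, which all cells had, the shares were 0.467%, 14.0% and 0.107%.

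Anxa3, abundant in neutrophil granules, followed with 38.3 CPM (32.3 to 45.1) in the control, 491 (481 to 502) with YAP5SA and 26.6 (23.0 to 30.6) in the knockout. The YAP5SA level was 12.8-fold (10.9 to 15.3) that of the control. It was detected in 15.3%, 77.7% and 13.5% of epithelial-gated cells, or 3.43%, 33.0% and 3.41% after thinning. The control and knockout shares lay close together on both scales, far under that of YAP5SA.

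Anxa2, which pairs with S100a10 at the plasma membrane and links it to actin and to plasminogen activation, went from 476 CPM (454 to 499) in the control to 1775 (1755 to 1796) in YAP5SA, a 3.73-fold (3.56 to 3.91) difference. It stood at 325 (312 to 338) in the knockout, 1.47-fold (1.38 to 1.56) below the control. Of YAP5SA epithelial-gated cells, 94.2% held an Anxa2 UMI, against 71.2% in the control and 57.3% in the knockout. Thinned, the shares were 73.7%, 36.4% and 23.3%, in the same order.

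Anxa1, a glucocorticoid-induced annexin whose tail signals through formyl peptide receptors to restrain inflammation, stood at 95.8 CPM (86.1 to 106) in the control, 296 (288 to 305) with YAP5SA and 65.5 (59.7 to 71.6) in the knockout. YAP5SA was 3.09-fold (2.78 to 3.45) above the control. The knockout was 1.46-fold (1.27 to 1.68) below it, within the 2-fold limit. Anxa5, which coats phosphatidylserine on dying cells and is the annexin of the common apoptosis stain, stood at 126 (115 to 138), 345 (336 to 354) and 60.7 (55.2 to 66.6) CPM. Its YAP5SA level was 2.74-fold (2.50 to 3.02) above the control and its knockout level 2.07-fold (1.82 to 2.37) below. The control level was close to the 105 CPM (92.8 to 118) of Anxa5 in erythroid-gated control cells, which carry globin and served as a gauge of free RNA. Anxa5 in erythroid-gated cells was 99.6 CPM with YAP5SA and 40.8 in the knockout, the latter 2.56-fold (1.79 to 3.78) below the control. The part of free RNA in the epithelial Anxa5 values was not tested.

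Anxa10, a gastric annexin whose core has lost much of its calcium binding, went the other way. Its level was 453 CPM (432 to 475) in the control, 47.8 (44.5 to 51.3) with YAP5SA and 580 (563 to 598) in the knockout. That is 9.49-fold (8.71 to 10.3) lower in YAP5SA and 1.28-fold (1.21 to 1.36) higher in the knockout. A UMI of Anxa10 was found in 65.1%, 20.2% and 62.7% of epithelial-gated cells, and in 32.7%, 5.33% and 35.1% after thinning. Gastric lineage markers moved with it across libraries: 6 pit cell markers summed to 9546 CPM in control, 661 in YAP5SA and 10294 in knockout epithelial-gated cells. The 9 neck and chief cell markers summed to 22177, 322 and 22733 CPM, with Lipf at 0 in the control and YAP5SA and Aqp5 at 0 in the knockout, and their part in the Anxa10 result was not tested.

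The other 4 members lay within 2-fold in both comparisons. Anxa4, found at epithelial membranes, stood at 79.5 CPM in the control, 95.5 with YAP5SA and 74.4 in the knockout. Anxa6, whose core is duplicated and which acts on endosomes and in muscle, stood at 125, 153 and 95.2 CPM. Anxa7, linked to granule fusion, stood at 61.0, 81.9 and 66.7 CPM. Anxa11, which tethers RNA granules to lysosomes, stood at 53.0, 76.5 and 44.7 CPM. In YAP5SA all 4 ratios were between 1.20 (Anxa4, 1.06 to 1.36) and 1.44 (Anxa11, 1.24 to 1.69).

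In the Yap knockout library, 1 of the 9 annexins read (Anxa5) stood at least 2-fold below the control in epithelial-gated cells and 0 stood above. Of all 6911 genes read, 3.26% were lower and 3.14% were higher by the same rule. The median log2 ratio of the 9 members was -0.38, against 0.03 over all genes read. With the mean of each cell's CPM in place of the sum, or without squamous-gated and intestinal-gated cells, the Anxa5 ratio was above 0.5 and the count of lower members was 0. The erythroid-gated Anxa5 values given above are a further limit of this count. Both comparisons share the control library, so their ratios are not independent of each other.

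Epithelial-gated cells also carried UMIs of other classes' markers, and these differed between libraries. All 9 fibroblast markers were detected in each library, summing to 7458 CPM in control, 3192 in YAP5SA and 1119 in knockout epithelial-gated cells. Smooth muscle markers summed to 3232, 1749 and 2435 CPM over 8 of 8 genes. Mesothelial markers summed to 105, 1297 and 50.7 CPM over 6 of 6 genes. Anxa2, Anxa5 and Anxa6 were high in fibroblasts or muscle, as given below, and the part of these UMIs in their epithelial values was not tested. In the control, erythroid-gated cells held an Anxa5 UMI in 43.5% and an Anxa6 UMI in 46.9% of cells at a median depth of 6038 UMIs. The epithelial shares were 39.4% and 40.7% at 3326.5 UMIs. With cells thinned to 1000 UMIs the epithelial shares were 10.4% (8.18 to 13.1) and 13.4% (10.9 to 16.3), against 8.70% (5.86 to 12.3) and 9.01% (6.11 to 12.7) in erythroid-gated cells, and the intervals overlapped for both genes. The Anxa6 level was 125 CPM (114 to 137) in epithelial-gated and 113 (100.2 to 126) in erythroid-gated cells. For both Anxa5 and Anxa6 the thinned share and the CPM level were somewhat higher in control epithelial-gated cells than in this gauge. Overlap of intervals does not decide whether they differ, and the difference was not tested. The remaining 8 members had higher shares in control epithelial-gated than in erythroid-gated cells. Examples are Anxa10 with 65.1% against 6.83%, Anxa2 with 71.2% against 47.8% and Anxa8 with 3.27% against 0.621%.

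**Figure D2:**
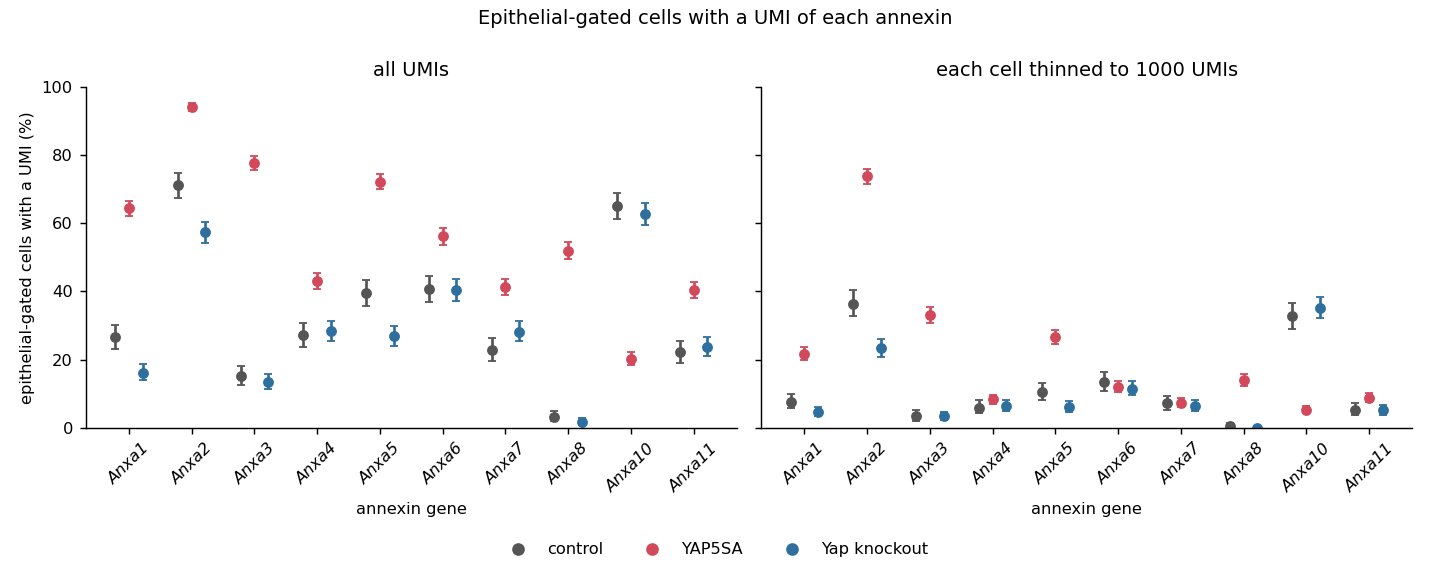
Percent of epithelial-gated cells with at least 1 UMI of each annexin in the 3 libraries, with all UMIs (left) and with each cell thinned to 1000 UMIs (right); bars are exact binomial 95% intervals over cells and cover counting error only. Anxa3 and Anxa8 reached 33.0% and 14.0% of thinned YAP5SA cells, against 3.43% and 0.467% in the control.

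A single epithelial-gated cell held UMIs of 3.34 different annexins on average in the control, 5.61 with YAP5SA and 2.99 in the knockout. After thinning to 1000 UMIs the means were 1.23, 2.11 and 1.02. No annexin UMI at all was found in 5.45% of control, 1.18% of YAP5SA and 11.8% of knockout epithelial-gated cells. These last shares are not thinned and depend on depth, whose medians were 3326.5, 6124.5 and 3596 UMIs.

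Within the epithelium, lineage gates separated the annexins. Cells passing the pit gate (mucous surface cells, Gkn1, Gkn2 and others) numbered 198 in the control, 54 with YAP5SA and 214 in the knockout. The neck and chief gate (Muc6, Pgc and others) took 310, 20 and 359 cells, the parietal gate (Atp4a, Atp4b and others) 20, 3 and 73, and the squamous gate (Krt5, Trp63 and others) 17, 177 and 5. Most YAP5SA epithelial-gated cells, 1423 of 1688, passed no lineage gate, against 87 control and 236 knockout cells.

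In cells with no lineage gate, Anxa8 had 0 UMIs in the control and 3 in the knockout but 2378 in YAP5SA, a level of 173 CPM (166 to 180). Against a floor of 3 counts over the control class sum, 7.67 CPM, YAP5SA was at least 22.6-fold higher. Anxa3 stood at 35.8 CPM in the control, 481 with YAP5SA and 49.5 in the knockout in these cells. Anxa10 stood at 343, 42.3 and 455 CPM.

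In the control and YAP5SA, squamous-gated cells held the highest levels of Anxa8 and Anxa2 among the lineage gates. In the 177 YAP5SA cells Anxa8 reached 405 CPM (377 to 434), Anxa2 2574 (2504 to 2646), Anxa3 600 (566 to 635) and Anxa1 580 (546 to 614). The 17 squamous-gated control cells also stood high, with 102 CPM of Anxa8 (52.5 to 178), 1559 of Anxa2 (1342 to 1801) and 390 of Anxa1 (285 to 520). Anxa3 was lower there, at 84.7 CPM (40.6 to 156). Anxa10 was at 25.8 CPM in squamous-gated YAP5SA cells and at 1 UMI in those of the control.

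Pit-gated cells of YAP5SA carried 578 CPM of Anxa1 (499 to 667) against 159 (133 to 188) in the control and 128 (112 to 146) in the knockout. Their Anxa8 level was 197 CPM (152 to 251) against 6.06 (1.97 to 14.1) and 6.44 (3.21 to 11.5). Anxa10 was 172 CPM (130 to 224) there, between the 411 of control pit-gated cells and the 42.3 of YAP5SA cells with no lineage gate. The 20 YAP5SA cells that passed the neck and chief gate held 699 CPM of Anxa10 (559 to 865), against 546 (515 to 578) in the control and 712 (685 to 741) in the knockout. Their Anxa5 level, 98.7 CPM (51.0 to 172), overlapped the control level of 117 (103 to 133). Other members stood above the control in these cells. Anxa3 was 156 CPM (94.1 to 244) against 27.4 (20.8 to 35.3), Anxa11 140 (81.5 to 224) against 49.2 (40.3 to 59.5) and Anxa2 568 (442 to 719) against 398 (372 to 426). Anxa8 rested on 4 UMIs, 32.9 CPM (8.97 to 84.3), against 4.64 (2.22 to 8.53).

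Parietal-gated cells, the acid-secreting lineage, were low in Anxa1 and Anxa2. The 73 knockout cells held 4 Anxa1 UMIs, and Anxa2 stood at 59.7 CPM (41.8 to 82.6). Anxa10 in parietal-gated cells was 192 CPM (137 to 261) in 20 control and 547 (490 to 609) in 73 knockout cells. These intervals did not overlap, but they cover counting error only. An Anxa10 UMI was found in 80.0% (56.3 to 94.3) of these control cells and 68.5% (56.6 to 78.9) of these knockout cells. The shares thus ran in the opposite order, with overlapping intervals, and kept that order after thinning. The difference was not tested. The 26 enteroendocrine-gated knockout cells held 479 CPM of Anxa6 (344 to 650), against 95.2 over all knockout epithelial-gated cells. Anxa10 was 105 CPM (48.1 to 200) there and 37.9 (21.2 to 62.5) in the 26 intestinal-gated knockout cells. The enteroendocrine-gated Anxa1 and Anxa8 counts were both 0, in a class sum whose intervals reach 43.1 CPM.

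**Figure D3:**
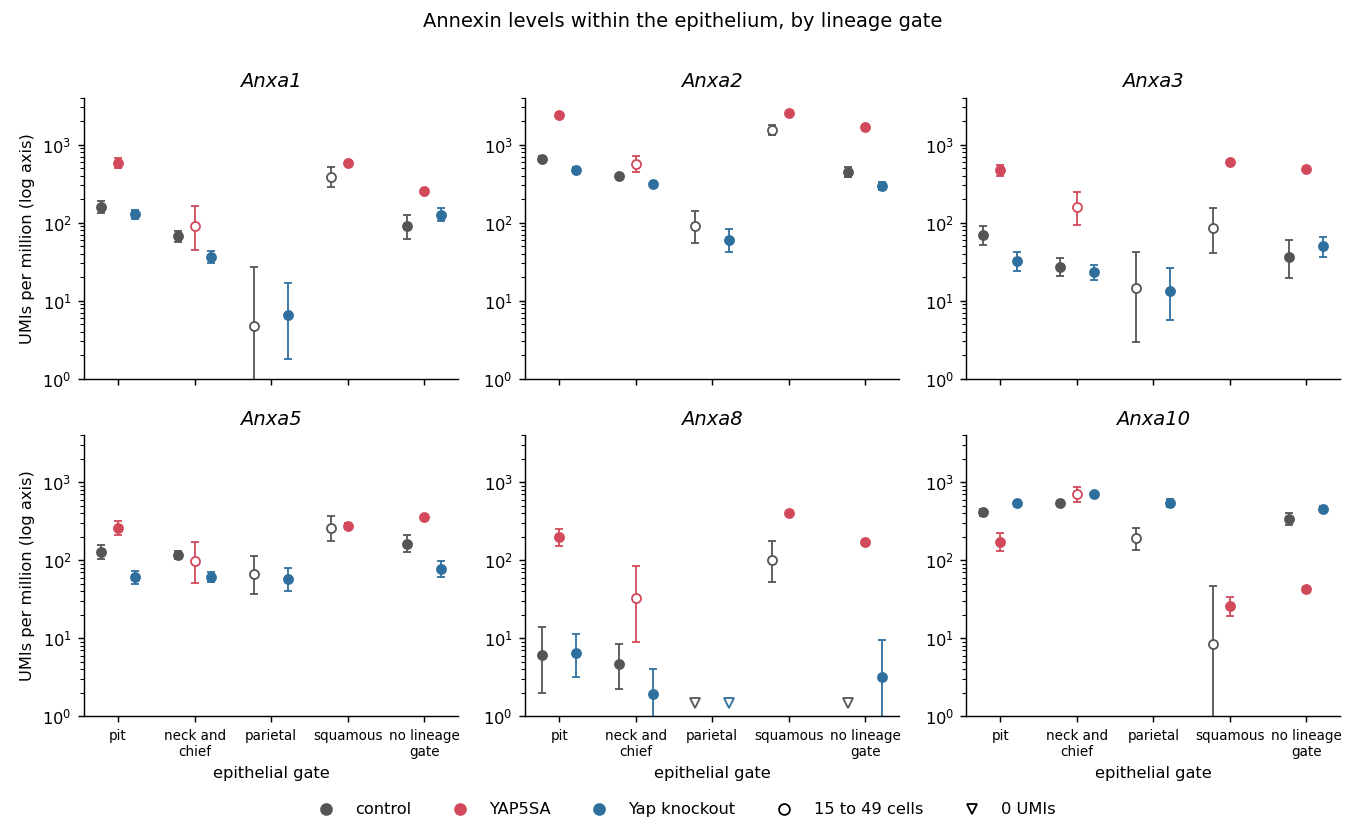
Levels of 6 annexins (CPM, log axis) in epithelial-gated cells split by lineage gate, for the 3 libraries; bars are exact Poisson 95% intervals, open circles are sums of 15 to 49 cells, triangles are sums with 0 UMIs, and sums of fewer than 15 cells are left out. Anxa10 in the 20 YAP5SA neck and chief cells stood at 699 CPM, near the control and knockout, while its level in YAP5SA cells with no lineage gate was 42.3.

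Outside the epithelium each annexin had its own distribution. In the control library, among 11 classes of at least 50 cells, Anxa2 ranged from 133 CPM in erythroid-gated to 1190 in mesothelial-gated cells, followed by fibroblasts at 923. Anxa5 was highest in enteric glia (672 CPM), then fibroblasts (501), and lowest in erythroid-gated cells (105). Anxa6 was highest in smooth muscle in all 3 libraries, at 605, 512 and 652 CPM, and made up 45.04%, 36.7% and 55.3% of annexin UMIs there. Anxa3 peaked in endothelial cells (116 CPM) and macrophages (97.3) of the control, whose intervals of 101 to 132 and 83.8 to 112 overlap. Epithelial-gated cells were the highest class for Anxa1, Anxa4, Anxa7 and Anxa10 in the control. For Anxa7 the epithelial level of 61.0 CPM and the pericyte level of 59.97 did not differ beyond their intervals.

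Neutrophil-gated cells stood apart in Anxa1. They carried 1223 CPM (1136 to 1315) in 187 YAP5SA cells, where Anxa1 made up 41.0% of annexin UMIs. The 44 knockout cells held 659 CPM (519 to 824) and the 17 control cells 1313 (1000 to 1694). The knockout interval thus lay below those of YAP5SA and the control, but these intervals cover counting error only. By share of cells YAP5SA was lowest, with an Anxa1 UMI in 12 of the 17 control, 22 of the 44 knockout and 78 of the 187 YAP5SA cells. Thinned, these shares were 58.8%, 40.9% and 32.6%, and the knockout and YAP5SA intervals overlapped. The formyl peptide receptors Fpr1 and Fpr2, through which Anxa1 is known to act, were concentrated in the same class. Fpr1 stood at 213 CPM and Fpr2 at 156 CPM in YAP5SA neutrophil-gated cells, and both at 581 CPM in those of the knockout. Anxa11 also stood high in neutrophil-gated cells, at 267, 174 and 173 CPM in the control, YAP5SA and the knockout. It was 220 CPM (183 to 261) in 85 MHC class II myeloid cells of YAP5SA but 32.0 (20.0 to 48.4) in 66 of the knockout. The 27 such cells of the control held 54.7 CPM (29.9 to 91.8), an interval that overlapped that of the knockout.

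**Figure D4:**
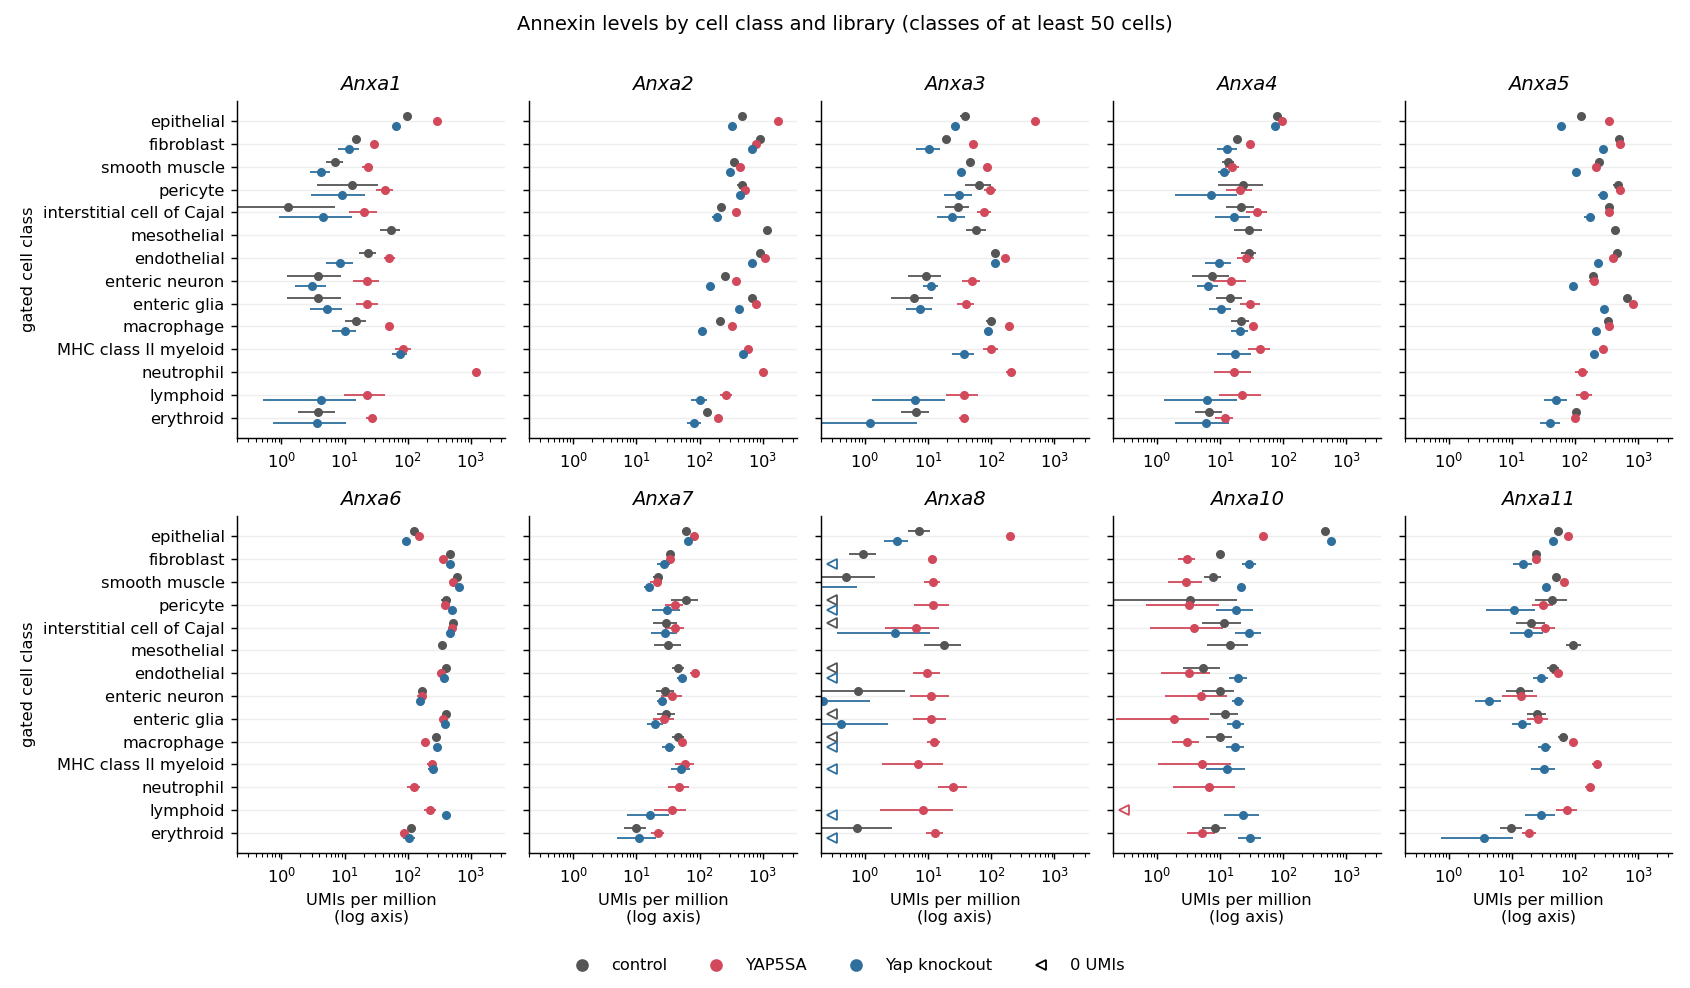
Level of each annexin (CPM, log axis) in every gated class of at least 50 cells, by library; bars are exact Poisson 95% intervals and open triangles mark 0 UMIs. Anxa10 is highest in epithelial-gated cells in all 3 libraries, Anxa6 in smooth muscle, and Anxa1 in YAP5SA neutrophils at 1223 CPM.

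Summed over all classes other than epithelial, 8 members were read in YAP5SA, of which 2 (Anxa1 and Anxa3) stood at least 2-fold above the control and 0 below. By the same rule 4.9% of the 7412 genes read were higher and 1.79% lower. Anxa1 was 14.9 CPM in the control, under the 20 CPM floor, and 54.3 in YAP5SA, 3.63-fold (3.30 to 4.01). Anxa3 was 32.5 CPM in the control and 87.5 in YAP5SA, 2.69-fold (2.51 to 2.88). Both were above the control in all 9 non-epithelial classes with at least 50 cells in each library, erythroid-gated cells included. The pooled folds also carry the make-up of the sums, which differed between libraries and was not adjusted for. Neutrophil-gated cells gave 731 of the 1919 YAP5SA Anxa1 UMIs, against 59 of 528 in the control. Macrophages gave 1116 of the 3094 YAP5SA Anxa3 UMIs, against 184 of 1150. In erythroid-gated cells Anxa1 went from 3.77 to 26.9 CPM and Anxa3 from 6.403 to 37.0. Over that class 3 of 6 members were at least 2-fold higher (Anxa1, Anxa3 and Anxa7) and 0 lower, where 18.2% of genes were higher and 2.43% lower. All 3 reached 20 CPM in YAP5SA only. Most erythroid-gated cells lay in cluster 15 in the control and the knockout (281 and 137 cells) and in cluster 9 in YAP5SA (382). The free-RNA part of these differences was not tested.

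Anxa8 was also above the control in all 9 of those classes, but at a like low level of 6.38 to 12.8 CPM, against 200 in epithelial-gated cells. Its share of erythroid-gated YAP5SA cells, 8.35% at a median depth of 5700 UMIs, compares with 52.0% of epithelial-gated cells at 6124.5. In the same way Anxa10 in the knockout stood at 17.6 to 30.03 CPM in all 9 classes, above the control's 3.33 to 12.1 CPM, with 580 in epithelial-gated cells. In YAP5SA, Anxa10 was below the control in the same 9 classes, at 1.84 to 5.19 CPM. The part of free RNA in these low levels was not tested. Outside the 9 classes, YAP5SA neutrophil-gated cells held 25.1 CPM of Anxa8 (14.1 to 41.4). The 20 mesothelial-gated YAP5SA cells were an exception, with 39 Anxa8 UMIs and 365 CPM (260 to 499), against 17.9 (8.58 to 32.9) in 63 control cells. Those 39 UMIs lay in 7 of the 20 cells, and the class had a median depth of 2376 UMIs against 8185 in the control. Mesothelial markers were also higher in YAP5SA epithelial-gated cells, as given above, with a median of 10.3 per 10000 UMIs against 0 in the control. The limit of the mesothelial gate was 8 per 10000. The part of epithelial cells in this Anxa8 value was not tested.

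In the Yap knockout, 7 members were read over all classes other than epithelial. Of these, 1 (Anxa10, at the low level just described) was at least 2-fold above the control and 1 (Anxa5) below. By that rule 7.12% of the 7917 genes read were higher and 3.81% lower. Anxa5 stood below the control in all 10 classes compared. It was 401 CPM (394 to 408) in the control and 163 (158 to 168) in the knockout over all non-epithelial cells, 2.46-fold (2.38 to 2.55) lower. Fibroblasts held 501 CPM in the control, 521 with YAP5SA and 283 in the knockout. Enteric glia held 672, 822 and 284 CPM, smooth muscle 243, 217 and 103, and endothelial cells 460, 404 and 228. Over the 9 non-epithelial classes the knockout was 1.54-fold (macrophages) to 2.56-fold (erythroid-gated cells) lower. The epithelial value of 2.07-fold lies inside that range. Anxa2 was likewise below the control in all 9 classes of the knockout, from 1.08-fold in pericytes to 1.95-fold in macrophages, and Anxa4 and Anxa11 were below it in all 9 too.

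Single classes were read in the same way. Gated fibroblasts of the control lay mostly in clusters 0 and 1 (2941 of 3239 cells, with 139 from YAP5SA), those of YAP5SA mostly in cluster 10 (1617 of 2449, with 11 from the control) and those of the knockout in cluster 0 (223 of 348). Gated smooth muscle lay in cluster 11 in the control and YAP5SA (540 and 404 cells) but in cluster 28 in the knockout (600 of 631, with 6 from the control). In fibroblasts of YAP5SA 1 of 8 members was higher (Anxa3, 2.62-fold, 2.31 to 2.99) and 0 lower, where 2.93% of genes were higher and 2.03% lower. Anxa2 in these cells was 0.835 times the control, 771 against 923 CPM, while it was above the control in the other 8 of 9 non-epithelial classes. Smooth muscle had 1 of 7 higher (Anxa1, 3.31-fold, 2.29 to 4.87) and 0 lower, where 1.56% and 1.06% of genes were. Macrophages had 1 of 8 higher (Anxa1, 3.33-fold, 2.27 to 5.05) and 0 lower, where 2.92% and 2.68% were. In enteric glia 3 of 8 were higher (Anxa1, Anxa3 and Anxa4) and 0 lower, where 3.89% and 2.61% were, with Anxa1 resting on 5 control UMIs and Anxa3 on 8. Members counted as higher in these classes were under 20 CPM in the control and were read through YAP5SA alone. Control Anxa1 was 7.04 CPM in smooth muscle, 15.3 in macrophages and 3.78 in enteric glia. Control Anxa3 was 19.3 CPM in fibroblasts and 6.04 in enteric glia, and Anxa4 was 14.3 in enteric glia. The YAP5SA erythroid-gated levels were 26.9 CPM for Anxa1 and 37.0 for Anxa3. Anxa1 stood close to its erythroid-gated level in smooth muscle (23.3) and enteric glia (23.0) and above it in macrophages (51.0). The part of free RNA in these Anxa1 values was not tested. Anxa3 was 50.7 CPM in fibroblasts and 39.6 in enteric glia, the latter close to the erythroid-gated level.

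In the same 4 classes of the knockout, the differences past 2-fold were those of Anxa10 and Anxa5. The Anxa10 levels, 28.8 CPM in fibroblasts and 21.6 in smooth muscle, did not exceed the 30.03 of erythroid-gated cells. Control levels in these 2 classes were 9.89 and 7.70 CPM, so the rule counts Anxa10 there through the knockout alone. The part of free RNA in these levels was not tested. Fibroblasts had 1 of 6 members higher (Anxa10) and 0 lower, where 4.17% of genes were higher and 1.26% lower. Smooth muscle had 1 of 7 higher (Anxa10) and 1 lower (Anxa5), where 2.5% and 1.78% were. Macrophages had 0 of 7 on either side, where 1.8% of genes were higher and 6.5% lower. Enteric glia had 0 of 5 higher and 1 lower (Anxa5), where 3.15% and 3.35% were. Within the epithelium, neck and chief-gated cells of the knockout had 0 of 9 on either side, where 3.24% and 3.51% were. Anxa5 was 1.91-fold (1.59 to 2.30) lower there.

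**Figure D5:**
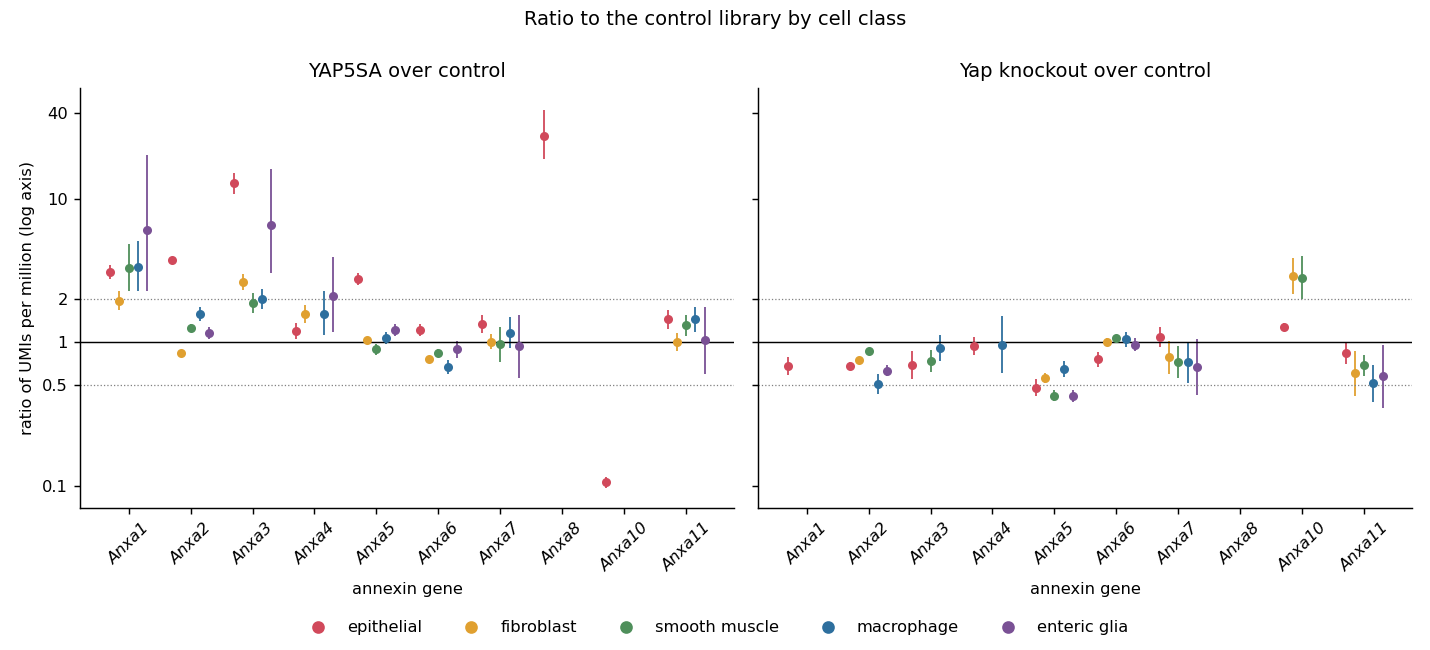
Ratio of each annexin's level to the control library (log axis) in 5 classes with at least 200 cells in every library, for YAP5SA (left) and the Yap knockout (right); only members with at least 20 CPM in either library are plotted, bars are exact 95% intervals for counting error, and dotted lines mark 2-fold. Anxa2 and Anxa5 stand above 2 in YAP5SA epithelial-gated cells and near 1 in fibroblasts, while Anxa5 is below 1 in all 5 knockout classes.

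Genes that work with annexins were read from a list of 23 partners, receptors and further family members. In YAP5SA epithelial-gated cells 11 of the 23 reached 20 CPM, and 7 were at least 2-fold above the control and 0 below, where 12.9% of all genes read were higher and 8.23% lower. The list's median log2 ratio was 1.14, against 0.15 over all genes read. S100a10, the partner of Anxa2, went from 190 to 905 CPM, 4.77-fold (4.42 to 5.15). S100a11, which binds Anxa1 and Anxa2, went from 474 to 1338 CPM, 2.82-fold (2.69 to 2.96). Ahnak, a giant scaffold recruited by the Anxa2 and S100a10 complex, was 2.37-fold higher, and its relative Ahnak2 5.38-fold (3.80 to 7.87). Pdcd6, which binds Anxa7 and Anxa11, was 2.97-fold, Plaur, the urokinase receptor, 2.17-fold, and the annexin Anxa13 2.73-fold higher. In the knockout 10 of the list were read, with Anxa13 2.06-fold (1.46 to 2.96) above and S100a16 2.06-fold (1.83 to 2.31) below the control, where 3.14% of all genes read were higher and 3.26% lower. S100a10 was 1.57-fold lower and S100a11 1.43-fold lower there, and the list's median log2 ratio was -0.27, against 0.03 over all genes read.

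Likeness of pattern was measured over 33 sums of at least 100 cells, each a class in a library, by Pearson's r of log2(CPM + 5). These points share 3 libraries and classes, so r is a description. Genes among the most like Anxa8 were Mab21l4 (r = 0.97) and Clic3 (0.96), and those most like Anxa10 were Tspan1 (0.97), Vsig1 (0.97) and Cyp2d26 (0.96). Anxa2 was most like its partner S100a11 (0.90), Anxa1 like Lamb3 (0.91), a laminin chain of the epithelial basement membrane, and Anxa6 like Itgb1 (0.93). Other partner pairs varied. For Anxa2, r was 0.68 with S100a10 and 0.65 with Ahnak, and for Anxa11 0.59 with Pdcd6 and 0.37 with S100a6. It was 0.80 for Anxa1 with S100a11 and 0.83 for Anxa7 with Sri, another gene of the partner list. Anxa4 was most like the keratin gene Krt18 (0.88), Anxa3 like Ddx39a (0.87), Anxa5 like Laptm4a (0.89), Anxa7 like Jup (0.86) and Anxa11 like Cox17 (0.86). Among the annexins themselves, Anxa4 and Anxa7 were the most alike (0.80), and Anxa5 and Anxa10 the least (-0.62).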

How the data were processed

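Single-cell RNA libraries of the 3 genotypes were read from the deposited matrices, whose values are counts, integer UMIs for each gene in each cell. PISA 1.0 wrote them, per the file headers. STAR and GRCm39 are named per the submitters' processing notes. No normalisation by the authors was found in the values, and the sources used here name no free-RNA correction. The lowest deposited cell had 1000 UMIs. The files held 7692 control, 9439 YAP5SA and 5739 Yap knockout cells, with 48910624, 65843658 and 40857358 UMIs.

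Cells with at least 500 genes and at most 20% mitochondrial UMIs were kept. Scrublet (scanpy 1.11.5, expected rate 0.06) called 0 doublets in each library, so the top 6% of scores were taken out (413, 511 and 311). Each kept cell was given 1 of 15 classes from marker lists: it needed 2 detected markers (3 for epithelial) and a marker share above a limit set after seeing the data. A cell passing a second gate at more than 0.5 of the first was left out, as were cells with no gate, so 85.4%, 82.5% and 78.0% of cells were classed. Epithelial-gated cells were split again by 6 lineage gates.

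UMIs were summed per class and library. A member was counted as higher or lower at 2-fold with at least 20 CPM in either library. Ratios have exact conditional Poisson 95% intervals, and shares of cells have Clopper-Pearson 95% intervals. A count of 0 allows a floor of 3 counts. With 1 library per genotype there is no p-value. List medians use log2(CPM + 5). All 10 annexins are named, and the partner genes are named where they reach 20 CPM or serve as receptors. For each annexin the most similar genes were named among those with at least 50 CPM in a class sum, and 1 such gene is not reported here. The members, gene lists and tests were chosen with earlier results of these data known. The scripts were tested on simulated data. Alternatives were TMM factors (edgeR 4.0.16), other floors, cell filters, gates, Leiden clusters (igraph 0.11.9) and cell weights. Tools were Python 3.11.15 with pandas 2.3.3, scipy 1.17.1 and numpy 2.4.6.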

Additional observations from a re-analysis of the deposited data

Results flagged for a closer look

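In YAP5SA against the control, Anxa2 and Anxa5 lay on opposite sides of 1 in epithelial-gated cells and in another class. Anxa2 was 3.73 times the control in epithelial-gated cells and 0.835 times in fibroblasts, so the first ratio was 4.47 times the second. Anxa5 was 2.74 times the control in epithelial-gated cells and 0.893 times in smooth muscle, a quotient of 3.07. Of 9 non-epithelial classes compared, Anxa2 was above the control in 8, up to 1.74 times, and below it only in fibroblasts. Anxa5 was above the control in 5 and below it in 4, from 0.877 to 1.22 times. Each class holds 1 library per genotype, and the difference between classes was not tested.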

How the results depend on the processing

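In YAP5SA epithelial-gated cells the counts of 5 higher and 1 lower annexin came out the same under 12 alternative settings, 10 of them planned and 2 added after seeing the data. The added settings took only cells with no lineage gate, or kept epithelial cells that passed a second gate. In the Yap knockout the count of lower annexins was 1 in the main setting, 0 with the mean of each cell's CPM, 0 without squamous-gated and intestinal-gated cells, and 2 (Anxa5 and Anxa8) with no floor on low values. Knockout ratios that crossed 1 were those of Anxa1 (1.42), Anxa3 (1.38), Anxa11 (1.26) and Anxa6 (1.01) in cells with no lineage gate, and of Anxa3 (1.00) and Anxa4 (1.02) with the mean of each cell's CPM. The cause was not tested. The Anxa8 ratio of YAP5SA ranged from 22.6 to 41.4 over these settings, that of Anxa3 from 12.5 to 14.8 and that of Anxa10 from 0.102 to 0.136. The knockout ratio of Anxa8 in cells with no lineage gate could not be given, since both counts were at or under the floor. No paired analysis was possible because each genotype has 1 library, and no library could be left out for the same reason. Some classes hold few cells, such as the 17 squamous-gated control cells. Differences between embryos, captures and genotypes cannot be told apart.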
